A study of Oryza sativa with 12 samples.

Results

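The auxin genes of rice considered here are those whose symbol or synonym, with or without the prefix Os, is IAA, ARF, PIN, YUCCA, GH3 or SAUR followed by a number. They were measured in dissected inflorescence meristems that still carried a few bracts. The rule uses names alone, though it was set with earlier results of these data known. Of 15140 genes with a probe of 1 listed gene, 43 met it. They comprised 19 Aux/IAA genes, 12 ARF genes, 7 GH3 genes, 4 PIN genes and 1 SAUR gene. The gene table used for naming held 1 YUCCA gene, which had no probe of its own under that name and was not analysed here. One member, GH3-5, is also listed as JAR1, the enzyme that conjugates jasmonate, so its inclusion rests on the family name and not on auxin.

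There were 12 Affymetrix arrays, 3 for each of 4 genotypes. The double mutant fon2-3 asp1-fe carried mutations in FON2 and ASP1, asp1-10 was mutant in ASP1 alone, fon2-3 was mutant in FON2 alone, and WT carried neither. FON2 encodes a CLAVATA3-like signal peptide that restricts meristem size, and ASP1 encodes a corepressor of the TOPLESS type. Because the double mutant carried the asp1-fe allele and the single mutant asp1-10, allele and combination cannot be told apart where they are compared. The plants were grown outdoors in pots, and the labels do not say whether arrays of 1 genotype came from separate plants. P-values therefore measure the spread between these samples only, which may be technical.

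Auxin is made from tryptophan by TAA-type aminotransferases followed by YUCCA monooxygenases, and PIN proteins carry it from cell to cell. Inside the nucleus it causes the breakdown of Aux/IAA proteins. These otherwise bind the ARF transcription factors and bring corepressors of the TOPLESS family to their target genes, which is the protein family that ASP1 belongs to. Aux/IAA, GH3 and SAUR genes are classic early targets of auxin, and GH3 enzymes remove free auxin by joining it to amino acids. In inflorescence meristems auxin transport places the new branch and flower primordia.

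Values are the deposited signals, taken as log2. Each member is represented by 1 probe, and 1 member, IAA5, had a second. A probe whose mean stayed below 5.55, the median of all values in the table, in every genotype is called dim, because its signal was not shown to exceed background. Of the 43 members 16 were dim, 8 of them Aux/IAA, 3 GH3, 3 PIN, 1 ARF (ARF10) and 1 SAUR. A gene is said to have risen or fallen where limma's test over all 54922 probes gave a Benjamini-Hochberg adjusted p below 0.05.

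Array medians ran from 5.51 to 5.60 and correlations between arrays from 0.962 to 0.986. Array 3 of asp1-10 stood apart from its group, its mean correlation being 0.975 within asp1-10 and 0.983 against fon2-3. The 6 measured meristem markers (APO2, FON1, LAX1, OSH1, OSH15 and WOX4, of 10 listed) were all above the dim level in at least 1 genotype. Of these, APO2, OSH1 and OSH15 rose in the double mutant, APO2 and OSH15 in asp1-10 and OSH15 in fon2-3, while FON1, LAX1 and WOX4 passed in none and WOX4 had a change below 0 in all 3 (-0.08, -0.13 and -0.26). Their mean signal ran from 7.26 to 7.79 over the double mutant arrays, 7.74 to 7.81 in asp1-10, 6.93 to 8.16 in fon2-3 and 6.21 to 7.13 in WT. The leaf and bract list (7 genes measured of 14 listed) ran from 4.94 to 5.32, 4.87 to 5.47 and 4.78 to 5.08 in the same 3 mutants, against 5.47 to 5.68 in WT, and its CAB1R and CAB2R probes were dim. In that list PSAH fell in all 3 mutants and OEE3 in the double mutant and fon2-3, whereas NL1 had changes of 0.81, 0.73 and 0.28 that did not pass. Of the 10 probes for later floral stages 6 were dim, among them FZP and MADS1, and the mean signal of the 10 ran from 4.77 to 4.83, 4.70 to 4.79 and 4.74 to 4.81 in these mutants, against 4.67 to 5.07 in WT. An entry under MADS2 (LOC4343851) is also listed as MADS18, so it was not shown to be the listed MADS2. Its probe was the brightest of the 10 in WT (mean 10.68). Of that list DL, a carpel and leaf midrib gene, fell by 1.49 in asp1-10 (limma adjusted p = 0.00805) and differed by 0.01 in the double mutant and -0.26 in fon2-3. Of 3 entries under vascular and wall names CESA4, a cellulose synthase, rose in all 3 mutants (0.71, 0.61 and 0.51, limma adjusted p = 0.0155, 0.0296 and 0.0354). The mean of the 3 entries ran from 6.82 to 6.89, 6.67 to 6.97 and 6.90 to 7.13, against 6.41 to 6.76 in WT. Among them, BC1 is also listed as OsbHLH081, which names a bHLH factor, so it was not shown to be the wall gene. That entry averaged 8.23 in fon2-3 against 7.60 in WT. The mean of 3 low oxygen genes set single arrays apart, at 8.89, 6.78 and 6.56 in the double mutant, 10.93, 10.41 and 6.42 in asp1-10 and 8.54, 6.57 and 7.85 in fon2-3, against 6.90, 10.38 and 10.195 in WT. The meristem list mean was above every WT array in the double mutant and asp1-10 and overlapped WT in fon2-3. The leaf and bract list mean was below WT, and in asp1-10 its highest array (5.468) all but reached the lowest WT array (5.47). Their part in the auxin gene results was not tested, and in whole meristems fewer cells of a type cannot be told apart from less RNA per cell.

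Of the 43 auxin genes 8 rose and 0 fell in the double mutant, 1 rose and 0 fell in asp1-10, and 4 rose and 1 fell in fon2-3, each against WT. Among all 15140 genes 4.53% were called in the double mutant (2.89% higher, 1.64% lower), 2.43% in asp1-10 (1.4% higher, 1.03% lower) and 5.72% in fon2-3 (3.91% higher, 1.81% lower). The asp1-10 count of 1 in 43 was thus near the share of all genes. In all, 9 members passed in at least 1 comparison, of which 8 were not dim. IAA17 was the 1 member that passed in all 3 mutants. At an unadjusted p under 0.05 there were 16 members in the double mutant, 16 in asp1-10 and 19 in fon2-3, where 22.7%, 19.4% and 24.5% of all genes passed. An F-test over the 4 genotypes called IAA2, IAA7 and ARF5, against 2.17% of all genes.

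**Figure D1:**
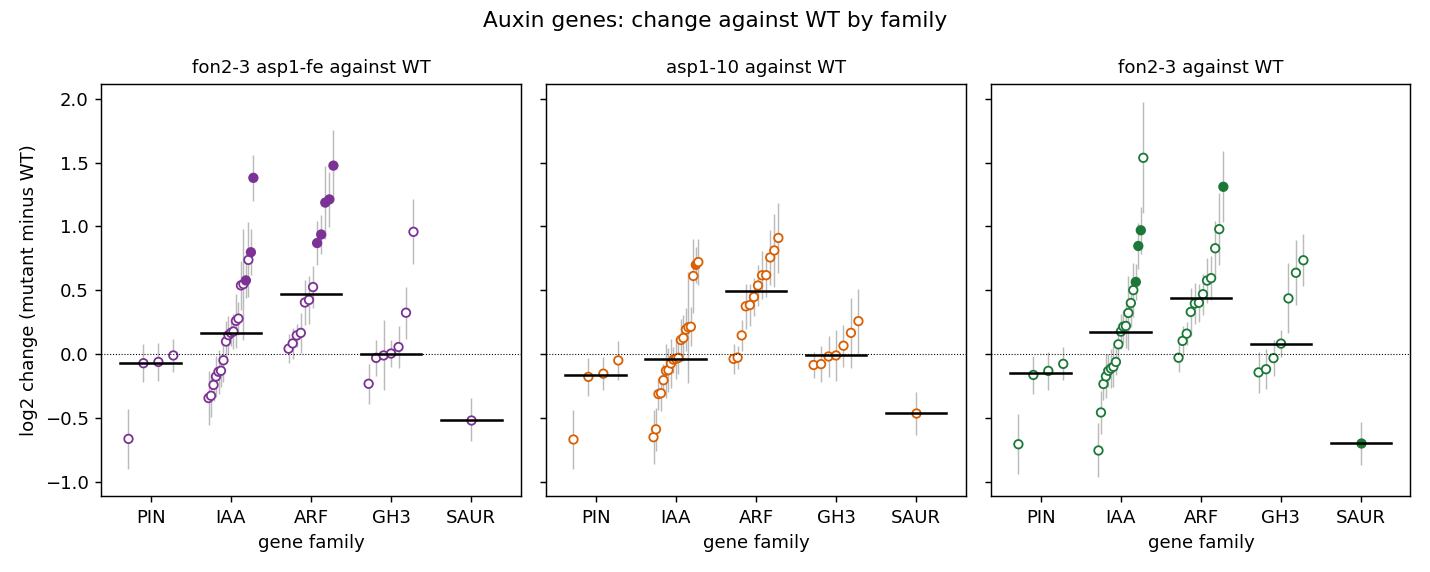
Log2 change of each auxin gene against WT (y axis) by gene family (x axis), with 1 panel each for the double mutant, asp1-10 and fon2-3. Points are genes with the SE as a grey line, filled points passed the test, and black lines are family medians; the ARF medians stood at 0.47, 0.49 and 0.44 in these panels.

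The ARF response factors leaned upward in every mutant. All 12 ARF genes had a positive log2 change in the double mutant, 10 of 12 in asp1-10 and 11 of 12 in fon2-3, where 51.2%, 51% and 53.3% of all genes did. The shares of all genes include dim probes, whereas 11 of the 12 ARF probes were not dim. Among the 27 members that were not dim, ARF genes included, 23, 16 and 20 had a positive change in these mutants. The median ARF change was 0.47 in the double mutant, 0.49 in asp1-10 and 0.44 in fon2-3, while the median of all genes was 0.008, 0.006 and 0.023. All 3 mutant arrays lay above all 3 WT arrays for 9 ARF genes in the double mutant, 8 in asp1-10 and 9 in fon2-3. The shares of all genes that did so were 19.2%, 14.9% and 20%. The 3 comparisons share the WT arrays, so they are not independent of each other. Over all 43 members the arrays lay wholly above WT for 19, 10 and 16 and wholly below for 2, 6 and 3 in these mutants, where 13%, 12.5% and 12.2% of all genes lay wholly below.

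**Figure D2:**
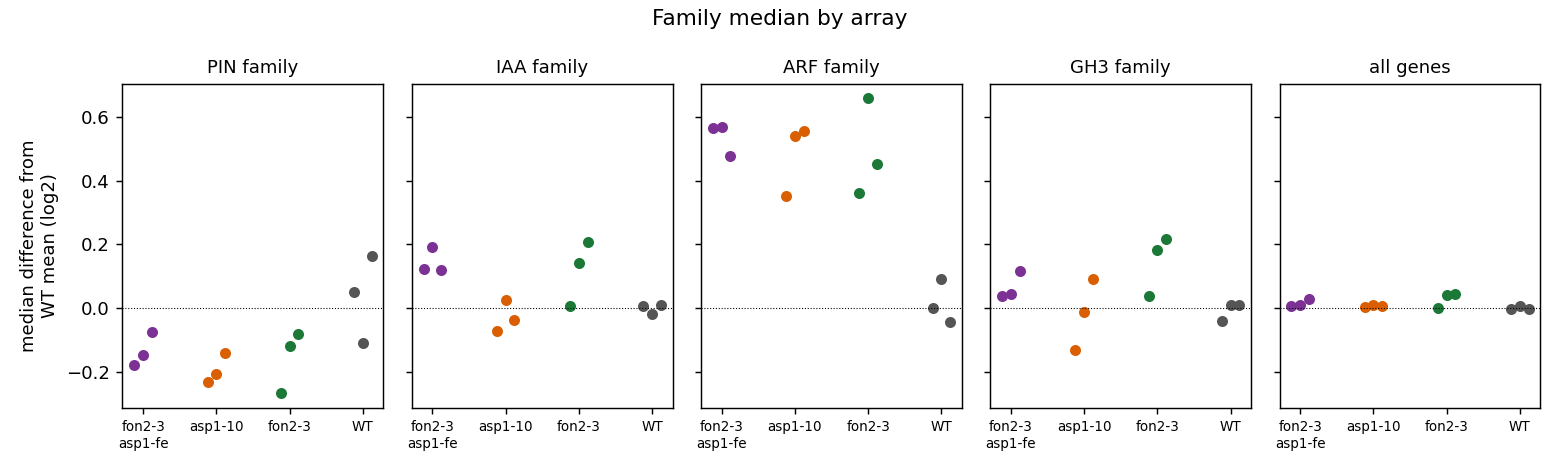
Median over the genes of a family of the difference from the WT mean (y axis, log2) for each array, with the double mutant, asp1-10, fon2-3 and WT along the x axis and all 15140 genes in the right panel. Each point is 1 array; the 9 mutant arrays sit between 0.35 and 0.66 for the ARF family, where the WT arrays sit between -0.04 and 0.09.

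By array, the ARF median difference from the WT mean was 0.57, 0.57 and 0.48 in the double mutant, 0.35, 0.54 and 0.56 in asp1-10 and 0.36, 0.66 and 0.45 in fon2-3, against 0.00, 0.09 and -0.04 in WT. No mutant array overlapped the WT arrays on this measure. It subtracts the mean of those same WT arrays, so all mutant arrays share any error in that mean. For the Aux/IAA family the medians were 0.12, 0.19 and 0.12 in the double mutant, -0.07, 0.02 and -0.04 in asp1-10 and 0.01, 0.14 and 0.21 in fon2-3, against 0.01, -0.02 and 0.01 in WT. The Aux/IAA medians of asp1-10 lay on both sides of 0.

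The transport and synthesis genes come first in the pathway. PIN3A (also listed as OSPIN10a and OsPIN3t), an auxin efflux carrier, had signals of 4.97, 5.35 and 4.73 in the double mutant, 5.35, 5.15 and 4.54 in asp1-10 and 5.14, 5.08 and 4.70 in fon2-3, against 5.69, 5.41 and 5.94 in WT. All 9 mutant arrays lay below all 3 WT arrays, as did 4.33% of all genes. The log2 changes were -0.67 (SE 0.234), -0.67 and -0.71, and none passed the test in limma (adjusted p = 0.126, 0.1498 and 0.0996). The means in all mutants lay below the dim level, so their signal was not shown to exceed background. The other 3 PIN probes (PIN5A, PIN9 and PIN5C, the last with a WT mean of 3.48) were dim in every genotype, and their changes against WT ran from -0.18 to -0.01.

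Of 69 further pathway names fixed as a list, 8 had a probe: TAA1, PID, SGT1, the IAA-amino acid hydrolase genes ILL1, ILL2, ILL5 and ILL7, and an entry listed as CRL4. That last entry is also listed as CHARK and OsHKL1, which names a receptor-type kinase, so it was not taken as the auxin transport gene of the same name. Of these 8 genes 1 rose and 0 fell in the double mutant, while 0 passed in asp1-10 and 0 in fon2-3. The shares of all genes called in these mutants were 4.53%, 2.43% and 5.72%. At an unadjusted p under 0.05, PID passed in all 3 mutants, TAA1 in the double mutant and fon2-3, and ILL2 and ILL5 in fon2-3, a threshold that 19.4% to 24.5% of all genes passed.

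TAA1 (also listed as FIB and TAR2), the aminotransferase that begins auxin synthesis from tryptophan, read 7.80, 8.06 and 7.82 in the double mutant, 6.97, 7.22 and 7.60 in asp1-10 and 7.62, 7.70 and 7.77 in fon2-3, against 7.14, 7.43 and 7.04 in WT. The double mutant and fon2-3 arrays lay above every WT array, whereas asp1-10 overlapped WT. TAA1 rose 1.61-fold in the double mutant (log2 change 0.69, SE 0.166, n = 3 per group, limma adjusted p = 0.0430). It differed by 0.06 in asp1-10 (adjusted p = 0.894) and by 0.50 in fon2-3 (adjusted p = 0.103). Its call held in 10 of 22 alternative fits, 3 of them among the 12 that left out 1 array, with adjusted p from 0.0181 to 0.153.

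PID, a protein kinase that in Arabidopsis sets the polar placement of PIN proteins, is described after its values were seen. It read 7.01, 7.06 and 8.22 in the double mutant, 6.85, 7.15 and 7.32 in asp1-10 and 7.20, 7.40 and 7.05 in fon2-3, against 6.29, 6.26 and 6.78 in WT. All 9 mutant arrays were above all WT arrays, as for 7.34% of all genes, the double mutant's array 3 by the widest margin. The log2 changes of 0.99, 0.66 and 0.78 did not pass the test in limma (adjusted p = 0.0752, 0.245 and 0.135).

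Among the ARF genes, 5 rose in the double mutant, 0 in asp1-10 and 1 in fon2-3, where 2.89%, 1.4% and 3.91% of all genes rose. The 5 were ARF3, ARF14, OsETTIN2, ARF5 and ARF15. Their calls in the double mutant held in 8, 8, 4, 10 and 7 of the 12 fits that left out 1 array. The OsETTIN2 call was lost without any 1 of the WT arrays or of the double mutant arrays. OsETTIN2 (also listed as ARF2) and ARF15 (also listed as OsETTIN1) are the rice genes named after Arabidopsis ETTIN, an ARF of floral patterning.

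**Figure D3:**
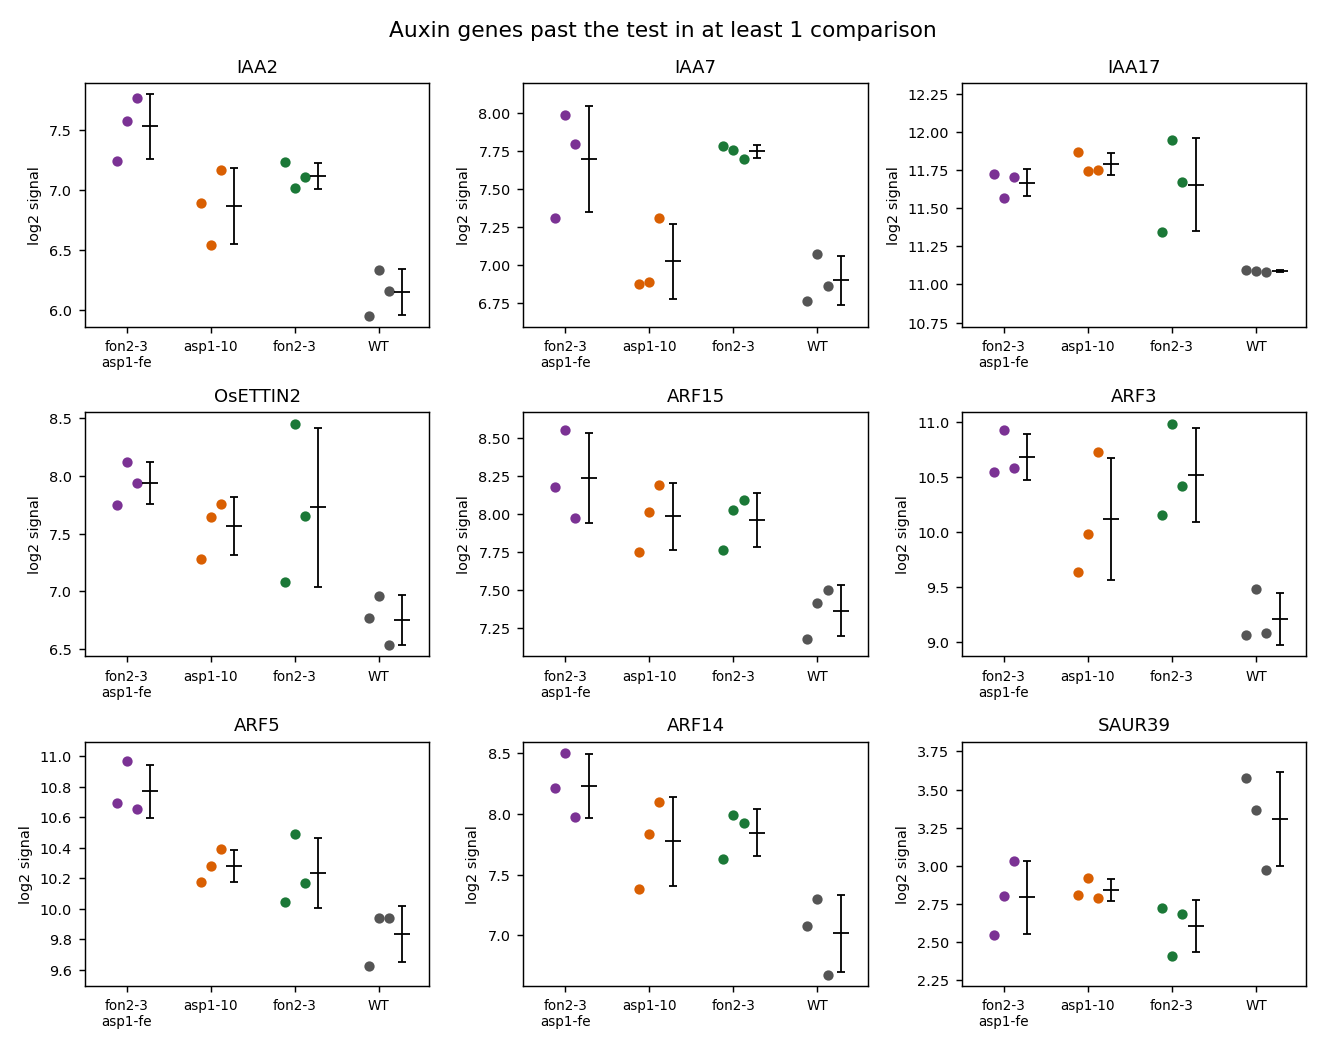
Log2 signal (y axis) of the 9 auxin genes past the test in at least 1 comparison, with 1 panel per gene and the double mutant, asp1-10, fon2-3 and WT along the x axis. Points are arrays and bars the mean and SD of 3 arrays; y axes differ between panels and do not start at 0, and the 3 WT arrays lie lowest for IAA2, IAA17 and the 5 ARF genes.

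ARF3 (LOC4327014) read 10.55, 10.92 and 10.58 in the double mutant, 9.64, 9.98 and 10.73 in asp1-10 and 10.15, 10.99 and 10.42 in fon2-3, against 9.06, 9.48 and 9.08 in WT. All mutant arrays lay above all WT arrays, and asp1-10 array 3, the array that stood apart, was the highest of its genotype. ARF3 rose 2.78-fold in the double mutant (SE 0.278 in log2, limma adjusted p = 0.0234) and 2.48-fold in fon2-3 (adjusted p = 0.0296). In asp1-10 it was 0.91 above WT on the log2 scale (adjusted p = 0.108).

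OsETTIN2 (LOC4325895) read 7.75, 8.12 and 7.94 in the double mutant, 7.28, 7.65 and 7.76 in asp1-10 and 7.08, 8.46 and 7.65 in fon2-3, against 6.77, 6.96 and 6.53 in WT. The spread was widest in fon2-3 (SD 0.691) and every mutant array lay above WT. It rose 2.28-fold in the double mutant (limma adjusted p = 0.0430), while the changes of 0.81 in asp1-10 and 0.98 in fon2-3 did not pass (adjusted p = 0.151 and 0.0686).

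ARF15 (LOC9268260) read 8.18, 8.55 and 7.98 in the double mutant, 7.75, 8.02 and 8.19 in asp1-10 and 7.76, 8.03 and 8.09 in fon2-3, against 7.18, 7.42 and 7.51 in WT. As for OsETTIN2, the mutant and WT arrays did not overlap. ARF15 rose 1.83-fold in the double mutant (limma adjusted p = 0.0287), with changes of 0.62 in asp1-10 (adjusted p = 0.0861) and 0.60 in fon2-3 (adjusted p = 0.0700) that did not pass.

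ARF14 (LOC4339313) read 8.21, 8.50 and 7.98 in the double mutant, 7.38, 7.84 and 8.10 in asp1-10 and 7.63, 7.99 and 7.92 in fon2-3, against 7.07, 7.30 and 6.68 in WT. It rose 2.32-fold in the double mutant (limma adjusted p = 0.0212), while the changes in asp1-10 (0.76, adjusted p = 0.0919) and fon2-3 (0.83, adjusted p = 0.0512) missed the threshold. The lowest asp1-10 array exceeded the highest WT array by less than the spread within either group.

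ARF5 was the ARF gene that also passed the F-test over the 4 genotypes (limma adjusted p = 0.0414). The gene (LOC4328265) read 10.69, 10.97 and 10.65 in the double mutant, 10.17, 10.28 and 10.39 in asp1-10 and 10.05, 10.49 and 10.17 in fon2-3, against 9.62, 9.94 and 9.94 in WT. The arrays fell in 3 tiers, with the double mutant above both single mutants and both above WT. ARF5 rose 1.92-fold in the double mutant (log2 change 0.94, SE 0.1497, adjusted p = 0.0153). It did not pass in asp1-10 (0.45, adjusted p = 0.136) or fon2-3 (0.40, adjusted p = 0.135).

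The other 7 ARF genes passed in no comparison, and ARF17 and ARF16 are described after their values were seen. Some names are shared by separate loci: ARF16 here is LOC9270361 and ARF10 is LOC4336419, while ARF1 is also listed as ARF16, ARF18 as ARF10, and both OsETTIN2 and ARF4 as ARF2. ARF17 was the further member whose 9 mutant arrays all lay above WT, with means of 9.46, 9.32 and 9.33 in the double mutant, asp1-10 and fon2-3 against 8.93 in WT (SD 0.165, 0.240, 0.252 and 0.109, n = 3 each). In total 6 of 12 ARF genes and 2 of 19 Aux/IAA genes had all 9 mutant arrays above WT, where 7.34% of all genes did. ARF16 was 0.17 above WT in the double mutant (adjusted p = 0.606), 0.54 above in asp1-10 (0.1002) and 0.47 above in fon2-3 (0.107), so its point estimate was lowest where both genes were mutated. ARF4, the ARF probe with the brightest WT signal (mean 12.55, SD 0.0499), differed from WT by at most 0.16 in any mutant. The dim ARF10 probe differed by at most 0.04.

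Among the 19 Aux/IAA repressor genes 3 rose in the double mutant, 1 in asp1-10 and 3 in fon2-3, and 0 fell in any. Of all genes 2.89%, 1.4% and 3.91% rose in these mutants, and 1.64%, 1.03% and 1.81% fell. The members that did not pass lay on both sides of WT, with positive changes in 9 of 16 in the double mutant, 7 of 18 in asp1-10 and 8 of 16 in fon2-3. The median over all 19 was 0.17, -0.04 and 0.18 in these mutants.

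IAA2 (LOC4326775) read 7.24, 7.58 and 7.77 in the double mutant, 6.89, 6.54 and 7.17 in asp1-10 and 7.23, 7.02 and 7.10 in fon2-3, against 5.95, 6.33 and 6.16 in WT. The double mutant arrays lay above those of all other genotypes, and the WT arrays below all others. IAA2 rose 2.60-fold in the double mutant (log2 change 1.38, SE 0.182, limma adjusted p = 0.0116) and 1.96-fold in fon2-3 (adjusted p = 0.0215). In asp1-10 it was 0.72 above WT (adjusted p = 0.0651). Its call in the double mutant held in 21 of 22 alternative fits and ended without double mutant replicate 2 (adjusted p = 0.0604).

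IAA7 (LOC4328796) read 7.31, 7.99 and 7.80 in the double mutant, 6.88, 6.89 and 7.31 in asp1-10 and 7.78, 7.76 and 7.70 in fon2-3, against 6.76, 7.07 and 6.86 in WT. Both lines with the fon2-3 allele were above WT without overlap, and asp1-10 overlapped WT. IAA7 rose 1.74-fold in the double mutant (limma adjusted p = 0.0367) and 1.80-fold in fon2-3 (adjusted p = 0.0294), against a change of 0.13 in asp1-10 (adjusted p = 0.771). Of the 12 fits that left out 1 array, its call held in 6 in the double mutant and 7 in fon2-3. The difference of asp1-10 from fon2-3 itself was -0.72 (95% interval -1.11 to -0.33, unadjusted p = 0.00189), which did not pass after adjustment over all probes (adjusted p = 0.267).

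IAA17 (LOC4338160), the Aux/IAA probe with the brightest WT signal, read 11.73, 11.57 and 11.71 in the double mutant, 11.87, 11.74 and 11.75 in asp1-10 and 11.34, 11.95 and 11.67 in fon2-3, against 11.10, 11.09 and 11.08 in WT. The SD of the WT arrays was 0.00612, and all mutant arrays lay above them. IAA17 rose 1.49-fold in the double mutant (limma adjusted p = 0.0445), 1.62-fold in asp1-10 (adjusted p = 0.0329) and 1.48-fold in fon2-3 (adjusted p = 0.0441). These calls were close to the threshold, and both the replicate block and the fits that left out any WT array ended all 3, with adjusted p from 0.0167 to 0.143 over all alternatives.

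**Figure D4:**
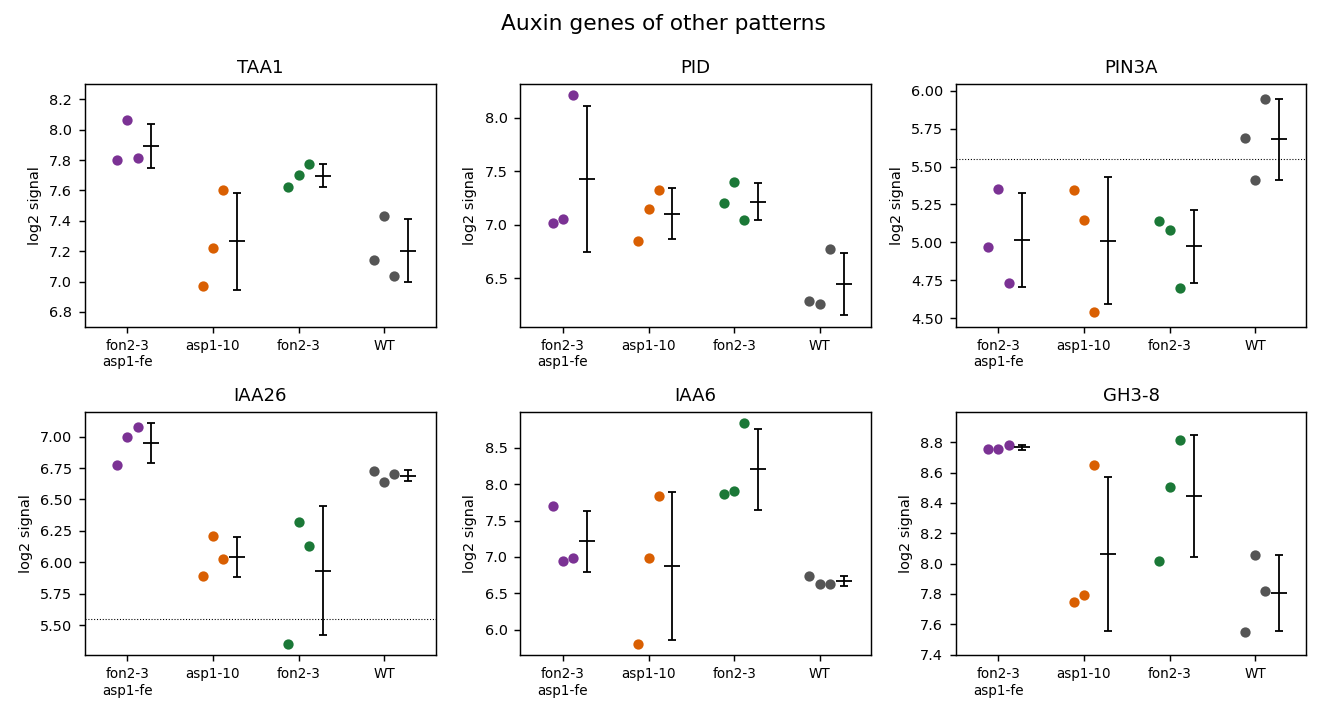
Log2 signal (y axis) of TAA1, PID, PIN3A, IAA26, IAA6 and GH3-8, with the double mutant, asp1-10, fon2-3 and WT along the x axis. Points are arrays, bars the mean and SD of 3 arrays and the dotted line the dim level of 5.55; y axes do not start at 0, and of these genes TAA1 alone passed the test, in the double mutant.

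Several Aux/IAA genes that did not pass are described because of their pattern, and were chosen after their values were seen. IAA26 read 6.77, 7.0 and 7.08 in the double mutant, 5.89, 6.21 and 6.02 in asp1-10 and 5.35, 6.32 and 6.13 in fon2-3, against 6.73, 6.64 and 6.70 in WT. Both single mutants lay wholly below WT and the double mutant wholly above it. The changes against WT were 0.26 in the double mutant (adjusted p = 0.529), -0.65 in asp1-10 (adjusted p = 0.127) and -0.76 in fon2-3 (adjusted p = 0.0620), all from limma.

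IAA6 read 7.70, 6.95 and 6.99 in the double mutant, 5.81, 6.98 and 7.84 in asp1-10 and 7.86, 7.91 and 8.84 in fon2-3, against 6.74, 6.62 and 6.63 in WT. The asp1-10 arrays spread over more than 2 log2 units (SD 1.02), from below to above WT. The change of 1.54 in fon2-3 was the largest of any auxin gene in that mutant but did not pass (SE 0.435, limma adjusted p = 0.0636). IAA16, the Aux/IAA gene with the dimmest WT signal (mean 3.54), differed by 0.54 in the double mutant, -0.07 in asp1-10 and 0.40 in fon2-3 with dim values throughout. The probes of IAA5 (LOC4325515, which is also listed as IAA8) disagreed: the brighter differed from WT by 0.17, -0.04 and -0.06, and the dimmer by 0.58, 0.40 and 0.72, in the double mutant, asp1-10 and fon2-3, with no call for either.

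The GH3 genes, which encode hormone-conjugating enzymes, had 0 calls among 7 in every mutant with limma. Of all genes 4.53% were called in the double mutant, 2.43% in asp1-10 and 5.72% in fon2-3. At an unadjusted p under 0.05, GH3-8 passed in the double mutant, and GH3-8 and GH3-5 in fon2-3. Of all genes, 22.7% passed that threshold in the double mutant and 24.5% in fon2-3. The family median was 0.004 in the double mutant, -0.01 in asp1-10 and 0.08 in fon2-3. GH3-8 (also listed as OsMGH3), which joins auxin to amino acids and was chosen after its values were seen, read 8.75, 8.76 and 8.78 in the double mutant, 7.75, 7.80 and 8.65 in asp1-10 and 8.02, 8.51 and 8.81 in fon2-3, against 7.55, 8.05 and 7.82 in WT. The double mutant arrays were nearly equal and above every WT array, while asp1-10 array 3 lay with them and the other asp1-10 arrays with WT. The change of 0.96 in the double mutant just missed the threshold (SE 0.254, adjusted p = 0.0571).

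GH3-5, the jasmonate-conjugating member, read 8.16, 8.26 and 8.23 in the double mutant, 7.52, 7.71 and 8.42 in asp1-10 and 8.64, 8.38 and 8.86 in fon2-3, against 7.88, 7.90 and 7.89 in WT. It had the smallest F-test p of its family (adjusted p = 0.122 in limma). The change in fon2-3 was 0.74 (adjusted p = 0.0592). GH3-11, the brightest GH3 probe in WT (mean 8.77), differed from WT by at most 0.09 in any mutant, and GH3-2, the dimmest (3.98), was below the dim level throughout.

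SAUR39 (LOC9271092), which in rice acts as a negative regulator of auxin synthesis and transport, was the 1 auxin gene that fell. Its probe was dim in every genotype, at 2.546, 2.80 and 3.03 in the double mutant, 2.81, 2.92 and 2.79 in asp1-10 and 2.72, 2.41 and 2.69 in fon2-3, against 3.58, 3.37 and 2.97 in WT. The double mutant overlapped WT, and the 2 single mutants lay below it. SAUR39 fell by 0.70 log2 units in fon2-3 (SE 0.171, limma adjusted p = 0.0427). The call held in 9 of 21 alternative fits and in 3 of the 12 that left out 1 array, and was lost with cyclic loess and the replicate block (adjusted p from 0.0255 to 0.149). It was -0.51 and -0.47 from WT in the double mutant and asp1-10 (adjusted p = 0.110 and 0.170). At such signals no genotype was shown to exceed background.

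Between mutants 0 of 43 auxin genes passed in limma: double mutant against asp1-10, double mutant against fon2-3, and asp1-10 against fon2-3. Among all genes the share called was 0.0198% in each of these comparisons. At an unadjusted p under 0.05 there were 9, 6 and 6 members, where 9.68%, 5.22% and 11% of all genes passed. Arrays lay wholly above for 10, 4 and 2 members and wholly below for 2, 4 and 6. The matching shares of all genes were 8.6%, 4.96% and 5.7% above, and 6.61%, 6.79% and 9.53% below. ARF5 was 0.49 higher in the double mutant than in asp1-10 (95% interval 0.16 to 0.82, adjusted p = 0.468) and 0.54 higher than in fon2-3 (0.21 to 0.86, adjusted p = 0.795), with no overlap of arrays in either. IAA2 was 0.66 higher than in asp1-10 (0.26 to 1.06) and 0.41 higher than in fon2-3 (0.01 to 0.81), again without overlap. For ARF3 the double mutant differed from fon2-3 by 0.17 (interval -0.44 to 0.78), which leaves room for a difference of either sign.

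Additivity, the change in the double mutant less the summed changes of the single mutants, was not called for any of the 43 members in limma, against 0.0264% of all genes. At an unadjusted p under 0.05 there were 6, namely IAA26, IAA17, ARF16, IAA23, IAA15 and SAUR39, where 13.6% of all genes passed, so the share of members was near that of all genes. Of the 12 ARF genes 9 had a negative value, with a median of -0.36, and a negative value means that the double mutant's change was smaller than that sum. Among all 15140 genes 8046 had a negative value, and the median over all genes was -0.02. The contrast uses the WT arrays that also set each single change, and the double mutant's asp1 allele differs from that of the single mutant.

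The counts changed with the array left out, and each such fit also had fewer arrays. In the double mutant 8 members were called with all arrays. Leaving out its own replicate 1, 2 or 3 gave 3, 0 and 5 calls, leaving out WT replicate 1, 2 or 3 gave 1, 4 and 2, and leaving out fon2-3 replicate 3 gave 5. In asp1-10 the count fell to 0 without any 1 of the 3 WT arrays, asp1-10 replicate 1 or 3, or double mutant replicate 1, and was 2 without fon2-3 replicate 1. Without asp1-10 replicate 2 the count was still 1, but the gene was IAA2 in place of IAA17. In fon2-3 the 5 calls became 0 without WT replicate 1 or 3 or fon2-3 replicate 2 or 3, became 3 without WT replicate 2, asp1-10 replicate 2 or double mutant replicate 2, and became 8 without asp1-10 replicate 3. The ARF family median changed little under the same omissions: it ran from 0.44 to 0.54 in the double mutant, 0.39 to 0.54 in asp1-10 and 0.42 to 0.50 in fon2-3. The log2 changes of the called genes kept their sign. In the double mutant, for example, IAA2 ran from 1.26 to 1.53 and IAA7 from 0.655 to 0.992.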

How the data were processed

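Total RNA was turned into sense-strand DNA, labelled with biotin and read on Affymetrix arrays, per the labels' protocols. Affymetrix Expression Console 1.3 is named in the submitters' processing notes. The sources used here do not give the background correction, normalization or summarisation. From their range, the values the authors deposited were read as log2 signals, and base 2 is an assumption on which every fold change rests. Symbols came from the platform's probe table (1 symbol for 15829 probes, several for 440, no listed gene for 38653) and synonyms from the RefSeq gene table ASM3414082v1. The probe with the highest mean stood for a gene. Positions and sequences were not used here.

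With all 12 arrays and 54922 probes, genotype means were estimated in limma 3.58.1 in R 4.3.3 (lmFit, eBayes; 8 residual and 3.22 prior degrees of freedom). Tests were two-sided, with Benjamini-Hochberg adjustment over all probes. An exact permutation of 3 arrays against 3 cannot pass 0.05, so none was run. The script was tested on simulated data. The members and lists were chosen with earlier results of these data known. Genes were named with values where called, where brightest or dimmest in WT within a family, or, in a family with no call, where the F-test p was smallest. Other choices are stated. Alternatives were scaling, filtering, weights, the replicate block, probe choice and leaving out each array. No pairing by replicate number was seen: same-numbered deviations correlated between -0.182 and 0.106 over 18 pairs, and different-numbered ones between -0.191 and 0.197. With 3 arrays per genotype this cannot exclude pairing. The number of arrays limits the precision.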

Additional observations from a re-analysis of the deposited data

Results flagged for a closer look

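In IAA26 the double mutant lay wholly above fon2-3 while asp1-10 lay wholly below WT, so that every array of 1 comparison went up and every array of the other went down. The differences were 1.02 for the double mutant against fon2-3 (95% interval 0.55 to 1.48, limma adjusted p = 0.636) and -0.65 for asp1-10 against WT (-1.12 to -0.19, adjusted p = 0.127), so neither passed. The additivity value was 1.67 on the log2 scale (95% interval 1.01 to 2.32, unadjusted p = 0.000155) and did not pass after adjustment over all probes (adjusted p = 0.123). It passed in the fit with 1 probe per gene adjusted over genes.

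In IAA17 the double mutant lay wholly below asp1-10, the highest double mutant array reading 11.73 and the lowest asp1-10 array 11.74, while fon2-3 lay wholly above WT. The double mutant differed from asp1-10 by -0.12 (95% interval -0.43 to 0.19, limma adjusted p = 0.901), an interval that includes 0, and fon2-3 was 0.57 above WT (0.26 to 0.87, adjusted p = 0.0441). The additivity value was -0.69 (95% interval -1.12 to -0.25, adjusted p = 0.223). In both genes asp1-fe in the double mutant and asp1-10 in the single mutant are different alleles, so allele and combination cannot be told apart.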

How the results depend on the processing

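No call changed direction under any alternative run. Against WT, fon2-3 had 5 members called, which became 3 with cyclic loess, 11 with dim probes left out, 10 with array weights, 11 with 1 probe per gene and 1 at a log2 change of at least 1. The single call of asp1-10 became 4 with dim probes left out, 2 with 1 probe per gene, and 0 when only the groups compared were fitted or at a log2 change of at least 1. The double mutant's 8 became 4 at a log2 change of at least 1. The F-test's 3 became 8 with dim probes left out, with a trend and robust prior or with 1 probe per gene, and 9 with array weights. Additivity went to 1 (IAA26) with 1 probe per gene. The fits with dim probes left out or 1 probe per gene adjust over fewer probes, while array weights and the trend and robust prior keep all probes. Why calls were added was not tested for any of these settings. With 1 array left out, counts ran from 0 to 8 in fon2-3, 0 to 2 in asp1-10, 0 to 9 in the double mutant, 0 to 9 for the F-test, and 0 to 1 for asp1-10 against fon2-3, where GH3-5 passed without asp1-10 replicate 3. Double mutant against fon2-3, double mutant against asp1-10 and, with an array left out, additivity stayed at 0. For the F-test, 0 remained without WT replicate 1, WT replicate 3 or double mutant replicate 2, 1 without WT replicate 2, fon2-3 replicate 3, asp1-10 replicate 2 or double mutant replicate 3, and 9 without asp1-10 replicate 3. The replicate block gave 3 calls in fon2-3, 0 in asp1-10, 7 in the double mutant and 2 in the F-test. Whether same-numbered arrays share more than the number is not known. Leaving out GH3-5, an alternative chosen after seeing the data, changed no count. The planned restriction to genes described as auxin proteins was not run, since the tables used hold no descriptions. Cyclic loess moved the ARF median in the double mutant to 0.40 and the GH3 median in fon2-3 to -0.03. Signal over background limits the 16 dim members.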
